A study of Arabidopsis thaliana with 4 samples.

Results

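The most abundant messages of 7-d-old Arabidopsis thaliana seedlings were taken as the probe sets, the groups of short probes that each report 1 transcript or several alike, whose signal was at least 3000 in each of 4 arrays. Of 22746 probe sets that are not controls, 152 passed this threshold. Genes whose symbols mark them as photosystem, light-harvesting or Rubisco small subunit genes, the Rubisco activase gene RCA and organelle-encoded genes were left out. This removed 11 probe sets, 7 for nuclear genes (LHCB4.1, LHCB4.2, RCA, PSBY, PSBW, PSAN and PSAE-1) and 4 for plastid genes (psbF, petB, psbM and psbJ), so that 141 probe sets remained. The probe table lists 1 gene for 27 of them, several genes for 9 and no gene for 105, and those 105 could not be checked against the classes left out. Since the signals themselves chose the members, the levels below are a description with no test, and a floor that must be met in every array favours probe sets that vary little.

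The study compared control seedlings with seedlings that overexpress AtRALF1, which encodes a peptide signal (rapid alkalinization factor) tied to cell expansion in roots. Each control sample was an equal mixture of RNA from wild-type plants and from plants transformed with the empty pART27 vector. Each 35S:AtRALF1-1 sample was an equal mixture of RNA from the pair of lines 35S:AtRALF1-1-I and 35S:AtRALF1-1-II, in which the cauliflower mosaic virus 35S promoter, active in nearly all plant tissues, drives the transgene. RNA came from whole seedlings 1 week old, grown upright on 4 plates of about 200 seeds for each genotype, chilled for 48 h and then kept at 24 °C under 16 h of light a day. Each group has 2 samples, called its 1st and 2nd repeat. Nothing in the labels tells separate plantings from repeat hybridizations of the same RNA, and p-values therefore cover only the spread between these samples, possibly a technical one. The probe table names no probe set for AtRALF1, so its raised level was not checked here.

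A growing seedling makes new cells and new chloroplasts at the same time, and both rest on protein synthesis. Cytosolic ribosomes consist of a small subunit, which reads the message, and a large subunit, which joins the amino acids. A flexible stalk on the large subunit recruits the elongation factors, of which eEF1A brings each aminoacyl-tRNA to the ribosome and eEF1B recharges eEF1A with GTP. Most chloroplast proteins are encoded in the nucleus, made on these ribosomes and then imported. Light capture, electron transport and the Calvin cycle dominate the work of green cells, and roots contribute their own abundant proteins to a whole-seedling sample.

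The arrays were deposited as linear signal intensities, brought by the authors to a mean of 125 in every array when the highest and lowest 2% are left out. The median signal of an array was between 42 and 50.5. The threshold of 3000 was passed by 195 and 223 probe sets in the first and second control repeat and by 188 and 233 in the 35S:AtRALF1-1 repeats, before the 4 arrays were combined. Green tissue and root were both represented: LHCB4.1 lay between 6883.3 and 10061.1, RCA between 8571.6 and 9925.7 and the root gene PYK10 between 4085 and 7079.2. The root hair genes EXPA7 and EXPA18 lay at 62.2 to 190.8, the root peroxidase gene AT5G17820 at 304.4 to 776.7, and the pollen gene AT1G29140 at 4.9 to 15.2. The markers fixed for dry seeds, the storage protein and oleosin genes, are not named in the probe table and were not analysed here. In samples of whole seedlings, fewer cells of a type and less RNA per cell cannot be told apart.

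The ratio of 3' to 5' signal on the control probe sets, a sign of RNA or cDNA length, moved with the repeat in most of the controls. It was higher in both first repeats than in both second repeats for 4 of 6 control ratios. For the ubiquitin control of the first set, it was 2.77 and 3.10 in the first repeats of the control and 35S:AtRALF1-1 and 2.07 and 1.90 in their second repeats. The actin control of that set did not separate the repeats, with 6.51 and 6.44 in the first repeats and 3.55 and 6.90 in the second. The GAPDH control of the second set separated the groups, with 0.79 and 0.72 in the control repeats and 0.92 and 0.81 in the 35S:AtRALF1-1 repeats. The actin control of the second set was also higher in 35S:AtRALF1-1 within each repeat (2.85 against 2.13, and 2.07 against 1.46). In the other controls the direction between the groups differed between repeats. The part of these shifts in the repeat and group differences described below was not tested.

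**Figure D1:**
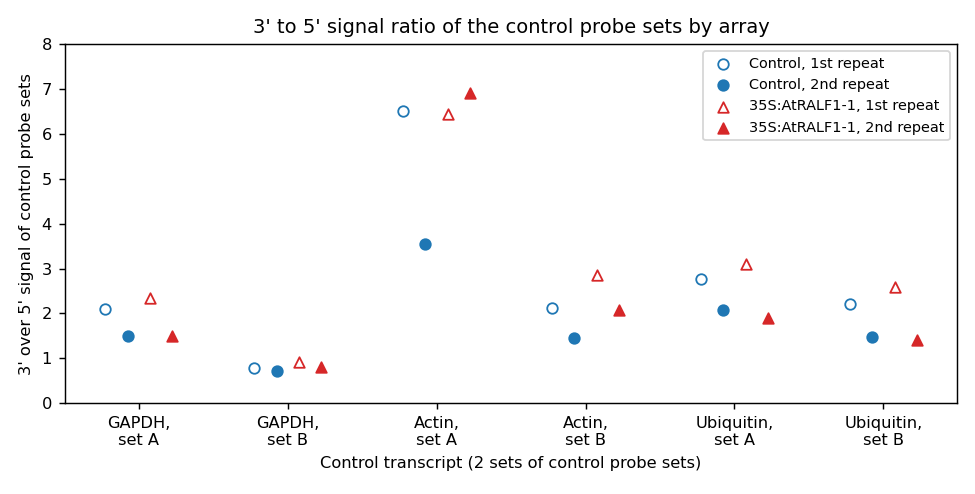
Ratio of 3' to 5' signal (vertical axis, no unit) for glyceraldehyde-3-phosphate dehydrogenase, actin and ubiquitin control probe sets on each of the 4 arrays. Set A and set B are 2 separate designs of control probe sets. Open symbols are first repeats and filled symbols second repeats. GAPDH in set A, actin in set B and ubiquitin in both sets are higher in both first repeats.

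Translation made up the largest named group. Of the 36 members with a gene listed, 17 report cytosolic ribosomal proteins and 3 report translation elongation factors, so that 20 of 36 belong to the translation machinery. A further 6 report nuclear genes for chloroplast proteins outside the classes left out, and 10 have other roles or none given. At a threshold of 5000, 1 cytosolic ribosomal protein and 1 translation factor remained, beside 1 chloroplast and 3 other annotated members. The highest signal was 9868.6 among annotated members and 14363.8 among those with no gene listed. The share of translation genes among all annotated probe sets is not given here. The gene table gives names but no functions for most loci, and the roles stated are the standard annotation of these genes, given as background. Signal depends on the affinity of each probe as well as on the message. An order of brightness helped to pick the genes named, but it does not rank the messages of different members.

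Among the ribosomal proteins, 9 members belong to the small subunit, 5 to the body of the large subunit and 3 to its stalk. Of the 17, 11 name a single gene: AT2G41840 (S2), AT5G20290 (S8), AT5G15200 (S9), AT5G27700 (S21), AT2G34480 (L18a), AT3G49910 (L26), AT1G52300 (L37), AT3G60245 (L37a), AT3G09200 (P0), AT1G01100 (P1) and AT2G27720 (P2). The other 6 are listed for 2 or 3 copies of a ribosomal protein gene and cannot tell the copies apart. The probe sets 252693_s_at and 253291_at are both listed for the same 3 genes of ribosomal protein S29, so the 17 probe sets report 16 ribosomal proteins. Probe sets marked as shared between transcripts (_s_at) made up 14.9% of members (21 of 141) and 4.11% of all probe sets tested, and no member had the mark _x_at, which 0.554% of all probe sets carry. The share with no gene listed was 74.5% of members and 38.4% of all probe sets.

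Several families often taken as abundant did not reach the threshold in the probe sets that name them. The 105 members with no gene listed could not be checked for these families. None of 7 tubulin genes with a probe set of their own was a member, the brightest being TUA6 at 1701.6 to 2639. Nor was any of 2 actin genes, 6 histone genes or 5 plant defensin genes, although the probe set 252849_at, listed for 3 histone H3.3 genes, was. The single metallothionein gene named, MT1C, was a member. No aquaporin, 14-3-3, lipid transfer or ubiquitin gene is named by the symbols searched, so those families were not counted here, although AT2G45180, of a lipid-transfer protein family by its locus, was a member.

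**Figure D2:**
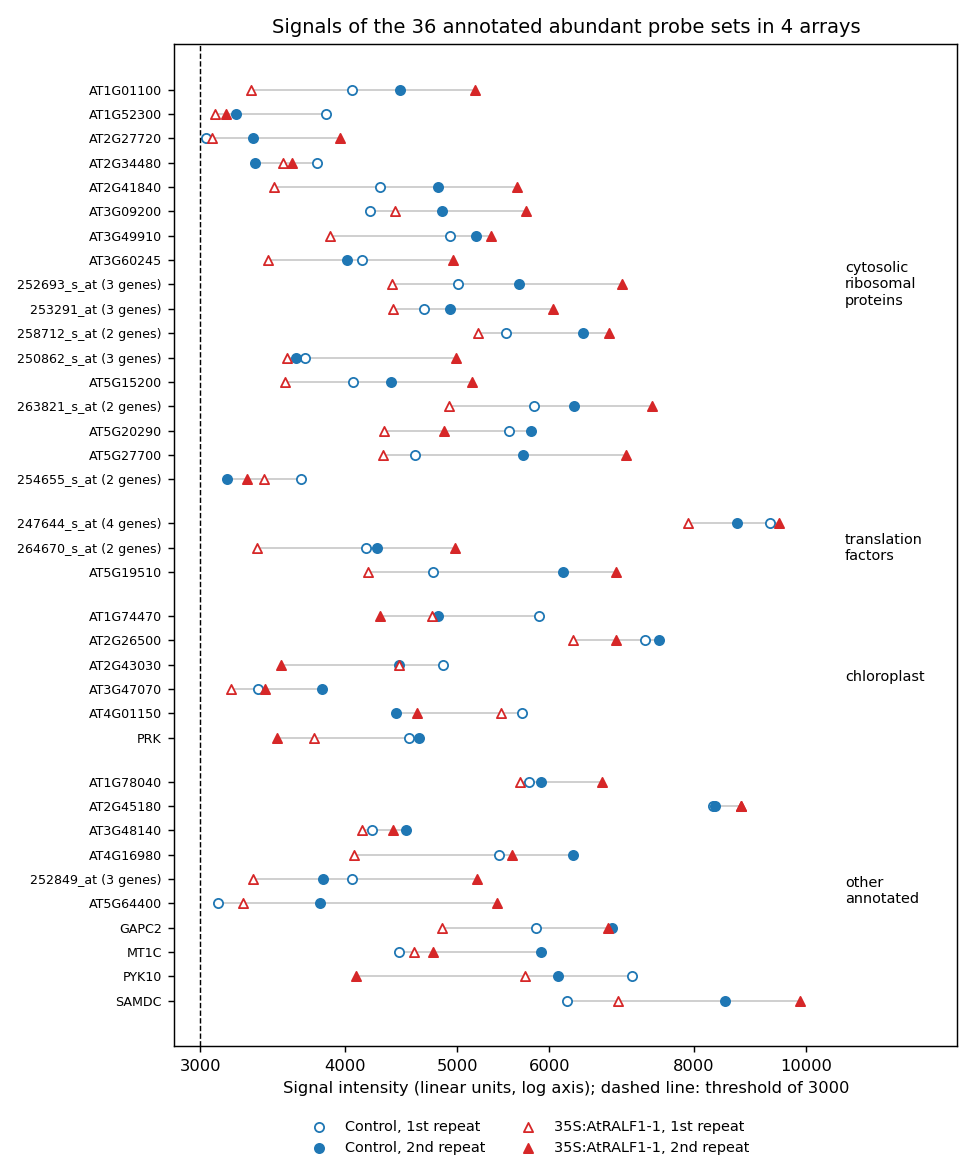
Signal intensity (horizontal axis, log scale, linear units) of the 36 annotated members, 1 row each, in the 4 arrays. Circles are control and triangles 35S:AtRALF1-1, open for the first repeat and filled for the second, a grey line joins the lowest and highest signal, and the dashed line is the threshold of 3000. On the deposited scale shown, an open triangle lies at the low end in 16 of the 20 translation rows, and a filled triangle at the high end in 16. Over all 141 members these counts were 72 and 55. The open triangle was lowest in 10 translation rows after quantile normalization and in 9 after cyclic loess.

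The abundant messages varied little between arrays. The highest of the 4 signals was 1.34 times the lowest in the median, with quartiles of 1.20 and 1.5 and a range from 1.06 to 2.25. The ratio was under 1.5 in 106 members and at least 2 in 6 (4.26%). Dimmer probe sets spread more: the median ratio was 1.58 over 599 probe sets with a mean of 1000 to 3000 and 1.71 over 1983 with a mean of 300 to 1000. Over all 204 probe sets with a mean of at least 3000, which need not reach it in every array, the median ratio was 1.40 and 11.8% reached a ratio of 2. These bands of mean signal keep the classes that were left out of the members. Without those classes, 186 probe sets had a mean of at least 3000, with a median ratio of 1.39. These ratios are a description, since the rule for members takes out bright probe sets that dip in 1 array.

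**Figure D3:**
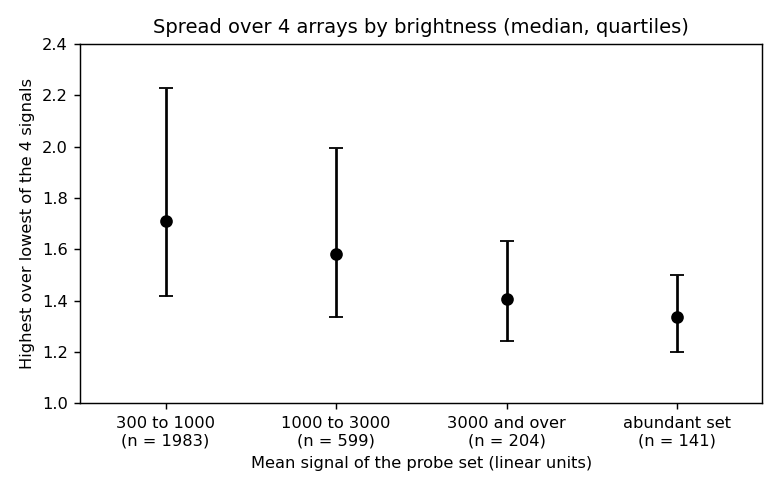
Highest over lowest of the 4 signals (vertical axis, ratio) for probe sets grouped by mean signal, with the 141 abundant members at the right. Points are medians and bars reach from the lower to the upper quartile. The median falls from 1.71 at a mean of 300 to 1000 to 1.40 at 3000 and over. It is 1.34 in the members, whose floor in every array takes out bright probe sets that dip in 1 array.

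No abundant message passed the test between the genotypes. By limma with Benjamini-Hochberg adjustment, 0 members had an adjusted p under 0.05, as did 0 of all 22746 probe sets (0%). At an unadjusted p under 0.05 there were also 0 members, beside 4.31% of all probe sets (980), 2.01% higher and 2.29% lower in 35S:AtRALF1-1. The smallest unadjusted limma p among members was 0.106 (adjusted p = 0.987), and in 132 of 141 the difference was smaller than its standard error from limma. That error draws on the variance of other probe sets as well. The fit leaves the repeat out, so shifts between repeats add to it. Differences between 35S:AtRALF1-1 and control ran from -0.54 to 0.30 on the log2 scale, and 1 was over 0.5 in size. With 2 arrays against 2, an exact permutation test cannot go below p = 0.333, and a p that misses the threshold does not show that the genotypes are alike.

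Members leaned downwards in 35S:AtRALF1-1 on the deposited scale, and this lean changed with the scaling and with the arrays kept. The difference was below 0 in 100 of 141 members (70.9%) beside 55.9% of all probe sets, with a median of -0.05 in members and -0.04 in all. Below 0 lay 69 members after quantile normalization and 58 after cyclic loess. The median difference was -0.17 in the first repeat and 0.04 in the second, and 125 members were lower in the first repeat while 84 were higher in the second. Without the first 35S:AtRALF1-1 repeat the median was 0.0079. It was -0.015 without the first control repeat, which held the highest signal in 60 members. The arrays of the groups did not overlap in 22 members (15.6%), 2 higher and 20 lower in 35S:AtRALF1-1, beside 31.4% of all probe sets, 13.3% higher and 18.1% lower. After quantile normalization these counts were 14 higher and 9 lower, beside 15.8% and 15.3% of all probe sets. After cyclic loess they were 18 and 9, beside 16.5% and 15.3%.

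The repeat made a larger difference than the genotype for most members. The difference between second and first repeat was larger in size than that between the groups in 104 of 141 members (73.8%) beside 55.4% of all probe sets, and in 105 after either other normalization. The median size was 0.23 for the repeat and 0.10 for the group on the log2 scale, and 20 members differed by over 0.5 between repeats. The group-by-repeat contrast, which measures how the group difference changed between repeats, had a median size of 0.13, above that of the group. No member had an adjusted p under 0.05 by limma for the repeat, nor did any of the 22746 probe sets (0%). At an unadjusted p under 0.05 there were 11 members (7.8%), 6 higher and 5 lower in the second repeat, beside 11.8% of all probe sets, 4.73% higher and 7.1% lower. The repeats did not overlap in 87 members (61.7%), 50 higher and 37 lower in the second repeat, beside 43.7% of all probe sets, 19% higher and 24.7% lower. After quantile normalization 44 were higher and 49 lower, beside 22.8% and 20.9% of all probe sets. After cyclic loess 33 and 64 were, beside 21.9% and 22.1%. Members were higher in the second repeat in 80 of 141 cases (56.7%) beside 45.9% of all probe sets, with a median of 0.06, which became -0.07 after cyclic loess and -0.02 without the first 35S:AtRALF1-1 repeat.

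The first 35S:AtRALF1-1 repeat stood low for these messages on the deposited scale. Its median signal over the members was 4749.0, against 5434.8 and 5647.8 in the control repeats and 5765.5 in the second 35S:AtRALF1-1 repeat. It held the lowest of the 4 signals in 72 members and the highest in 2. After quantile normalization it held the lowest in 38 and the highest in 33, and after cyclic loess the lowest in 29 and the highest in 54. The members took 18.6% of the summed signal of that array and 19.2% to 20.1% of the other three.

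**Figure D4:**
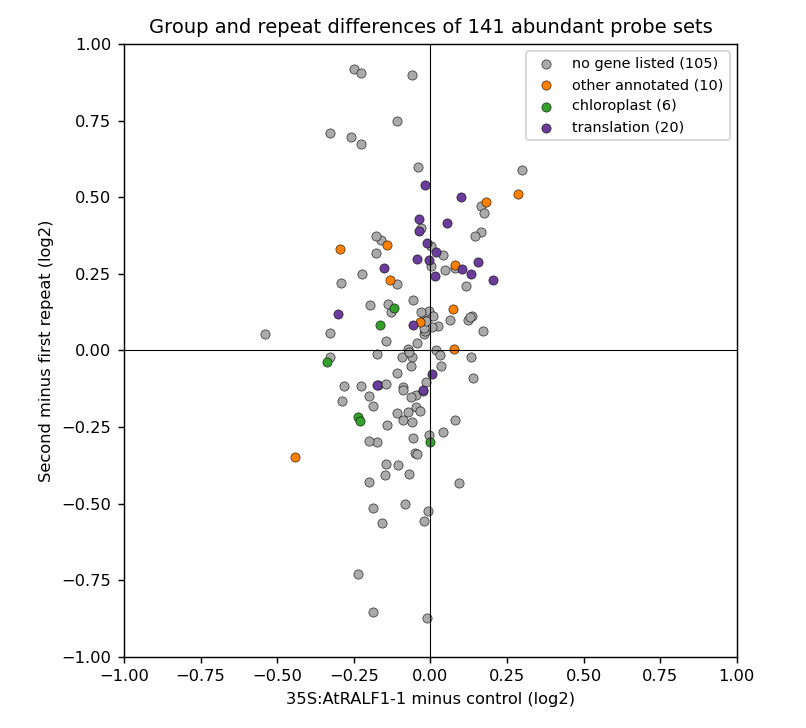
Difference between second and first repeat (vertical axis, log2) against difference between 35S:AtRALF1-1 and control (horizontal axis, log2) for each of the 141 members, coloured by role. The axes have the same span. The points spread further along the repeat axis (-0.87 to 0.92) than along the group axis (-0.54 to 0.30).

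Messages of the translation machinery were higher in the second repeat in most cases, and their direction between the genotypes changed with the scaling. Of the 20 translation members, 17 were higher in the second repeat as deposited, beside 45.9% of all probe sets. The count was 17 after quantile normalization and 15 after cyclic loess. Over the 204 probe sets with a mean of at least 3000, which include the classes left out, the median repeat difference was 0.09 as deposited. That of the translation members was 0.28, which was 0.17 and 0.14 under those normalizations. None of the 20 had an unadjusted limma p under 0.05 for the repeat. The median was 0.09 within the control and 0.47 within 35S:AtRALF1-1. Between the groups, 11 were lower and 9 higher in 35S:AtRALF1-1, with a median of -0.01 and a range of -0.30 to 0.20. After quantile normalization 3 were lower and 17 higher, with a median of 0.04, and after cyclic loess 3 and 17, with a median of 0.06. The repeats went opposite ways here. On the deposited scale 18 of 20 were lower in 35S:AtRALF1-1 in the first repeat and 18 higher in the second. Of all 141 members, 125 were lower in the first repeat and 84 higher in the second. After quantile normalization 12 translation members were lower and 16 higher, and after cyclic loess 12 and 17.

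The elongation factor gene AT5G19510, for a subunit of eEF1B, had the largest repeat difference among them. Its signals were 4762 and 6168.1 in the first and second control repeat and 4182.7 and 6846.6 in the first and second 35S:AtRALF1-1 repeat. Both second repeats lay above both first repeats, and the genotypes overlapped. The repeat difference was 0.54 (SE from limma 0.21, adjusted p = 0.423) and the group difference -0.02. The probe set 264670_s_at, listed for 2 genes of another eEF1B subunit, gave 4167.6 and 4261.6 in the control repeats and 3354.8 and 4974.3 in the 35S:AtRALF1-1 repeats, where the extremes are both 35S:AtRALF1-1 arrays. The probe set 247644_s_at, listed for 4 eEF1A genes, was steadier at 9310.3 and 8712.1 in the control repeats and 7899.5 and 9472.2 in the 35S:AtRALF1-1 repeats, a ratio of 1.20.

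All 9 small subunit members were higher in the second repeat on the deposited scale, beside 45.9% of all probe sets, with a median of 0.32. So were 9 after quantile normalization and 8 after cyclic loess. AT5G27700 (S21) read 4598.5 and 5699.9 in the control repeats and 4315.8 and 6981.9 in the 35S:AtRALF1-1 repeats, a repeat difference of 0.50 (limma adjusted p = 0.469). AT2G41840 (S2) read 4286.2 and 4806.7 in the control repeats and 3475 and 5624.5 in the 35S:AtRALF1-1 repeats, a repeat difference of 0.43. In both genes the second repeats lay above the first repeats and the genotypes overlapped. AT5G20290 (S8) was the member of this subunit with the largest group difference, with 5537.5 and 5790.2 in the control repeats and 4325.3 and 4872.4 in the 35S:AtRALF1-1 repeats. Here the genotypes did not overlap, and the difference was -0.30 (SE from limma 0.28, adjusted p = 0.987). The shared probe set 250862_s_at, listed for 3 S17 genes, had the largest positive group difference of the translation members at 0.20, which rested on the second 35S:AtRALF1-1 repeat: the signals were 3695.9 and 3629.5 in the control repeats and 3565.2 and 4990.2 in the 35S:AtRALF1-1 repeats, and without that repeat the difference was -0.04.

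The 3 stalk proteins were also higher in the second repeat under each of the 3 scalings, with a median of 0.29 as deposited. The share of all probe sets higher in the second repeat was 45.9% as deposited. AT3G09200 (P0), which anchors the stalk, gave 4205.9 and 4846.5 in the control repeats and 4413.8 and 5731.8 in the 35S:AtRALF1-1 repeats. Each genotype was higher in its second repeat, and the genotypes overlapped. The body of the large subunit was mixed, with 2 of 5 members higher and 3 lower in the second repeat under each scaling. AT2G34480 (L18a) was among the steadiest translation members with a highest-to-lowest ratio of 1.13. The signals of all 20 translation members lay between 3033.2 and 9472.2.

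**Figure D5:**
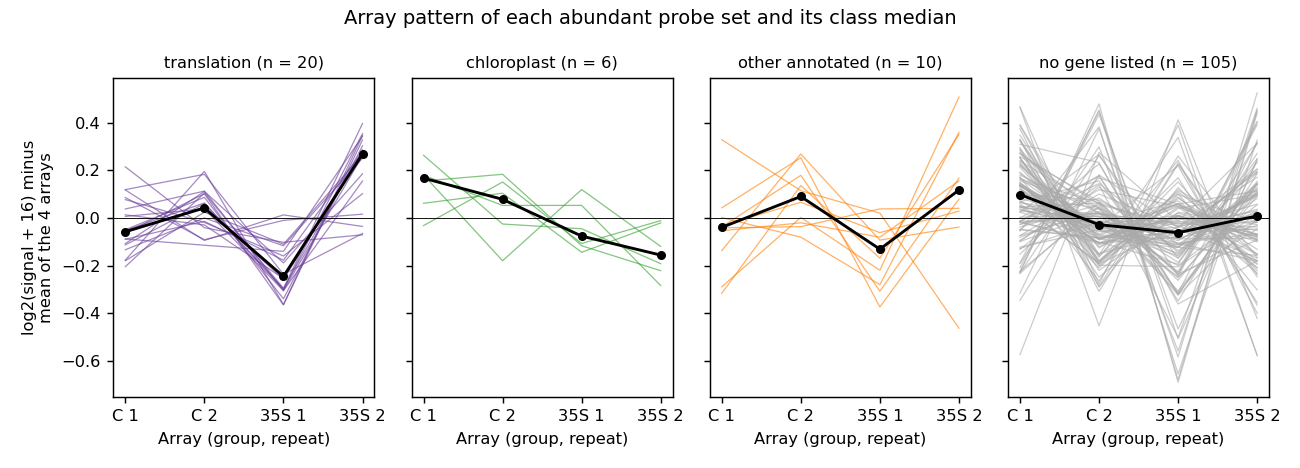
Signal of each member in the 4 arrays as log2(signal + 16) minus its mean over the arrays (vertical axis), by role, on the deposited scale. C is control and 35S is 35S:AtRALF1-1, followed by the repeat; thin lines join the values of 1 probe set and black points are the medians of the role. The translation members dip in the first 35S:AtRALF1-1 repeat and are highest in the second, a pattern that is smaller after quantile or cyclic loess normalization, and the chloroplast members are lower in both 35S:AtRALF1-1 arrays than in the first control repeat in the median.

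No message for a chloroplast protein passed the test between the genotypes. All 6 had a difference below 0 as deposited, beside 55.9% of all probe sets, and 5 after quantile normalization and after cyclic loess, with medians of -0.20, -0.16 and -0.13. None had an unadjusted limma p under 0.05. The arrays of 35S:AtRALF1-1 lay below those of the control without overlap in 3 of the 6 as deposited, beside 18.1% of all probe sets, and in 2 after either normalization, beside 15.3%. The median was -0.17 in the first repeat and -0.16 in the second as deposited, whereas quantile normalization gave -0.04 and -0.24 and cyclic loess 0.01 and -0.21. In the first repeat all 6 were lower as deposited and 3 after either normalization. Between repeats 4 were lower in the second as deposited and 5 after cyclic loess, with a median of -0.13, which became 0.02 without the first control repeat and 0.04 without the second 35S:AtRALF1-1 repeat.

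PRK encodes phosphoribulokinase, which regenerates the carbon dioxide acceptor of the Calvin cycle. Its signals were 4538.6 and 4628.3 in the control (4583.5 ± 63.4, SD, n = 2) and 3757 and 3493.2 in 35S:AtRALF1-1 (3625.1 ± 187, SD, n = 2). Both 35S:AtRALF1-1 arrays lay below both control arrays, while the repeats differed by -0.04. The group difference of -0.34 (SE from limma 0.26, adjusted p = 0.987) was -0.29 and -0.28 after quantile normalization and cyclic loess. AT2G26500, for the small PetM subunit of the cytochrome b6f complex in the electron transport chain, gave 7252.8 and 7468.4 in the control repeats and 6287.5 and 6849.4 in the 35S:AtRALF1-1 repeats, also without overlap, a difference of -0.17.

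AT1G74470 encodes geranylgeranyl reductase, which makes the phytyl chain of chlorophyll and tocopherol. It read 5884.9 and 4814.9 in the control repeats and 4749 and 4288.4 in the 35S:AtRALF1-1 repeats, and the lowest control array lay only just above the highest 35S:AtRALF1-1 array. AT4G01150, known as CURT1A and needed for the curved margins of the thylakoid stacks, moved with the repeat alone, with 5688.1 and 4428.7 in the control repeats and 5450.9 and 4617.6 in the 35S:AtRALF1-1 repeats. Its repeat difference was -0.30 and its group difference, at -0.00061 as deposited, was 0.03 and 0.06 under the other normalizations. AT2G43030, for protein L3 of the plastid ribosome, gave 4862.4 and 4453 in the control repeats and 4453.6 and 3524 in the 35S:AtRALF1-1 repeats, with 1 array of each genotype nearly level. AT3G47070, for a thylakoid soluble phosphoprotein, gave 3361.4 and 3817.6 in the control repeats and 3190.5 and 3410.6 in the 35S:AtRALF1-1 repeats, so that the genotypes overlapped.

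The other annotated members have varied roles. GAPC2 encodes cytosolic glyceraldehyde-3-phosphate dehydrogenase of glycolysis, an enzyme often used as a reference. Its signals were 5848.4 and 6798.1 in the control repeats and 4848.6 and 6742.2 in the 35S:AtRALF1-1 repeats, higher in both second repeats. The group difference of -0.14 (limma adjusted p = 0.995) became 0.10 without the first 35S:AtRALF1-1 repeat, and the repeat difference was 0.35. SAMDC encodes S-adenosylmethionine decarboxylase of polyamine synthesis and also followed the repeat, with 6211.9 and 8503.2 in the control repeats and 6881.4 and 9868.6 in the 35S:AtRALF1-1 repeats, a repeat difference of 0.49 (limma adjusted p = 0.485). MT1C, for a small metal-binding protein, gave 4450.2 and 5899.1 in the control repeats and 4588.6 and 4766.7 in the 35S:AtRALF1-1 repeats, where the second control repeat alone stood higher.

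PYK10 encodes the beta-glucosidase stored in the endoplasmic reticulum bodies of roots. It read 7079.2 and 6100.5 in the control (6589.9 ± 692, SD, n = 2) and 5714.6 and 4085 in 35S:AtRALF1-1 (4899.8 ± 1152, SD, n = 2). Both 35S:AtRALF1-1 arrays were below both control arrays. The difference of -0.44 was the largest in size among annotated members (SE from limma 0.33, adjusted p = 0.987), and stood at -0.39 and -0.37 after quantile normalization and cyclic loess. It was -0.31 in the first repeat and -0.58 in the second. It was -0.20 without the second 35S:AtRALF1-1 repeat and -0.68 without the first. The other root markers, which are not members, ran the other way as deposited. EXPA7 read 62.2 and 107.1 in the control repeats and 111.3 and 130.7 in the 35S:AtRALF1-1 repeats, and EXPA18 135.7 and 99.6 against 156.8 and 190.8, both without overlap on the deposited scale. AT5G17820, at 304.4 and 477.1 against 406.1 and 776.7, was higher in each 35S:AtRALF1-1 repeat than in the control of the same repeat. The part of root content in the PYK10 difference was not tested.

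The steadiest and the least steady annotated members were both in this mixed group. AT2G45180, of a lipid-transfer protein family, gave 8305.4 and 8332.9 in the control repeats and 8775.3 and 8789.6 in the 35S:AtRALF1-1 repeats, a ratio of 1.06. It was the only annotated member whose 35S:AtRALF1-1 arrays both lay above the control arrays on the deposited scale, by 0.08 on the log2 scale. This was within the standard error from limma of 0.30, which draws on other probe sets as well, while the arrays within each genotype were nearly level. AT5G64400, for which no role is given, read 3107.9 and 3807.1 in the control repeats and 3262.3 and 5409.2 in the 35S:AtRALF1-1 repeats, a ratio of 1.74. Its group difference of 0.29 became -0.08 without the second 35S:AtRALF1-1 repeat. Of wall-related families, AT4G16980 (arabinogalactan proteins) gave 5434.8 and 6289.6 in the control repeats and 4070.2 and 5574.5 in the 35S:AtRALF1-1 repeats, and the genotypes overlapped. AT1G78040, of the Ole e 1 and extensin family, and AT3G48140, with no role given, had group differences of 0.07 and -0.03, of which the second turned positive under both other normalizations. The histone H3.3 probe set 252849_at gave 4053.2 and 3827 in the control repeats and 3331.6 and 5197.1 in the 35S:AtRALF1-1 repeats, with both extremes in 35S:AtRALF1-1. The highest-to-lowest ratio had a median of 1.39 in translation, 1.30 in chloroplast, 1.47 in other annotated and 1.31 in unnamed members.

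The 105 members with no gene listed held the extremes of both comparisons. All 11 members with an unadjusted limma p under 0.05 between repeats were among them (11 of 105), beside 11.8% of all probe sets at that threshold. Members with no gene listed make up 74.5% of the set. The probe set 261746_at gave 9131.7 and 4836.2 in the control repeats and 8811.8 and 4939.7 in the 35S:AtRALF1-1 repeats, so that the first repeats were nearly level with each other and the second repeats likewise. Its repeat difference of -0.87 (SE from limma 0.20) had the smallest p of all members (0.0079, adjusted p = 0.305). The probe set 255248_at behaved alike, with 6346.8 and 3784.9 in the control repeats and 6020 and 3070.6 in the 35S:AtRALF1-1 repeats, a difference of -0.86. In the other direction, 253174_at gave 5432.2 and 8875.4 in the control repeats and 3941 and 8641 in the 35S:AtRALF1-1 repeats, the highest ratio of any member at 2.25 and a repeat difference of 0.92. The probe set 245356_at, at 5334.1 and 8619.2 in the control repeats and 4429 and 9564.2 in the 35S:AtRALF1-1 repeats, differed by 0.90 between repeats and by -0.06 between genotypes. The other members with the smallest p upwards were 260481_at, 263761_at and 266927_at, with repeat differences of 0.90, 0.75 and 0.67, and downwards 256309_at, 259840_at and 262557_at, with -0.73, -0.56 and -0.52. Neither 260481_at nor 250995_at, whose highest-to-lowest ratios were 2.20 and 2.05, separated the genotypes.

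Between genotypes, 250243_at had the largest difference of any member at -0.54 (SE from limma 0.27, adjusted p = 0.987). It read 5522.4 and 5236.6 in the control repeats and 3464.7 and 3930.5 in the 35S:AtRALF1-1 repeats, without overlap and with little change between repeats. In 266421_at, at -0.33, the genotypes did not overlap either. The largest positive difference, 0.30 for 261979_at, rested on the first control repeat, which at 3000 lay exactly on the threshold. Its other signals were 5414 in the second control repeat and 4427.7 and 5560.1 in 35S:AtRALF1-1, and without the first control repeat the difference was -0.13. The unnamed members 263663_at and 259431_at were both at 0.17, of which 259431_at became -0.098 without the first control repeat. The steadiest unnamed members, 251664_at, 250991_at, 255220_at and 263345_s_at, had ratios of 1.06 to 1.08. Of the unnamed members, 78 were lower and 27 higher in 35S:AtRALF1-1 as deposited, against 57 lower after quantile normalization and 46 after cyclic loess.

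The threshold decided how many messages counted as abundant, as the members next to it show. Just inside lay 261979_at, whose lowest signal was 3000, 259431_at at 3013.3, 266927_at at 3026.4, the stalk protein gene AT2G27720 at 3033.2 and 255248_at at 3070.6. Just outside lay 260767_s_at, whose lowest signal was 2972.8, 250358_at at 2961.4, AT3G58610 at 2936, AT3G11510 at 2928 and AT5G44020 at 2897.3. With 2000 in place of 3000 there would be 240 members, and with 5000 there would be 57. A mean of at least 3000 would give 186, of which 45 fell under 3000 in at least 1 array.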

How the data were processed

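RNA from whole seedlings was hybridized to 4 Affymetrix arrays, 2 for the control and 2 for 35S:AtRALF1-1. The deposited values are 1 signal intensity per probe set on a linear scale, scaled by the authors to a mean of 125 without the highest and lowest 2% of each array. The sources used here do not name the software that summarised the probes. Of 22810 probe sets, 64 controls were left out. Signals under 1 were set to 1, 16 was added and log2 taken. Each comparison was fitted over all 22746 probe sets with limma 3.58.1 in R 4.3.3 (lmFit, eBayes with an intensity trend, 2-sided with 2 residual degrees of freedom, p adjusted by Benjamini-Hochberg at a threshold of 0.05). The procedure was also run on simulated arrays that had no repeat effect. The changes planted there were larger than any group difference of the members, so that run does not tell how differences this small would fare. The number of arrays limits the precision. Saturation flags were not used.

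Names of genes are those of the platform's probe table, matched to the RefSeq gene table of TAIR10.1, used for names only. All 36 annotated members matched. Members with several genes are named by probe set. Genes named in the text are, for each role, those with 1 gene and the highest mean signal (up to 4), the 5 members with the smallest and the 5 with the largest ratio of highest to lowest signal, the 5 with the smallest p in each direction for genotype and repeat, the 5 on each side of the threshold, and GAPC2. Not every gene so picked is described, and other names were chosen after their values were seen. The members, their roles and the lists were chosen with earlier results of these data known, so no pattern here is independent support for them.

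Alternatives tried were normalization by quantiles or cyclic loess, an offset of 1 or 64, a fit on the brightest 60% of probe sets, a fit with no trend in the variance, the repeat as a block, leaving out each array, thresholds of 2000 and 5000, the mean in place of the lowest signal, and probe sets with 1 gene. Values within 1 group or 1 repeat, and other normalizations for the classes, were added after the data had been seen.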

Additional observations from a re-analysis of the deposited data

How the results depend on the processing

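With 2 arrays a group, small differences in these members cannot be resolved, and signals so far above the array median may be near saturation, which was not tested. No alternative gave a member an adjusted p under 0.05 in either comparison. At an unadjusted p under 0.05 between genotypes, 1 member passed in place of 0 when the brightest 60% of probe sets were fitted, 1 without the variance trend and 1 when the mean defined membership. The median group difference of -0.05 became 0.00020 after quantile normalization, 0.022 after cyclic loess and 0.0446 in the second repeat alone, and ran from -0.12 to 0.0079 with 1 array left out. The median repeat difference of 0.064 became -0.068 after cyclic loess, -0.023 at a threshold of 5000, 0.23 over probe sets with 1 gene and -0.0755 within the control, and ran from -0.022 to 0.113 with 1 array left out. The median highest-to-lowest ratio of 1.34 was 1.28 after quantile normalization, 1.30 after cyclic loess, 1.24 at a threshold of 5000, 1.39 with the mean rule and 1.37 over probe sets with 1 gene, and 1.24 to 1.30 over the 3 arrays left when each was taken out, as fewer arrays give a smaller range.

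The named roles depended on the threshold, which by construction lets more or fewer probe sets in. At 2000 and 5000 there were 46 and 1 cytosolic ribosomal proteins in place of 17, 13 and 1 chloroplast members in place of 6, and 22 and 3 other annotated members in place of 10. Translation factors numbered 3 at 2000 and 1 at 5000. The repeat median of translation members, 0.28, was 0.168 after quantile normalization, 0.142 after cyclic loess and 0.20 to 0.41 with 1 array left out. That of chloroplast members, -0.13, was -0.25 and -0.26 after those normalizations and ran from -0.25 to 0.041 with 1 array left out, above 0 without the first control repeat (0.017) or the second 35S:AtRALF1-1 repeat (0.041). The cause of these shifts was not tested.

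Of 330 values for 30 named differences under the alternatives, 325 kept direction and call. Many of these values could not differ, so the count does not measure robustness. The fit on the brightest probe sets, the fit with no variance trend and the repeat as a block leave each difference as it was. The other offsets hardly moved it: the group difference of GAPC2, -0.1408, became -0.1412 and -0.1395. No named difference was called in the main fit, so no call could be lost. The 5 that changed direction came from leaving out 1 array, and the group differences then ran from -0.38 to 0.096 for GAPC2, -0.076 to 0.65 for AT5G64400, -0.125 to 0.72 for 261979_at, -0.039 to 0.44 for 250862_s_at and -0.098 to 0.43 for 259431_at.

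The labels give both groups the same repeat numbers. Deviations of same-numbered arrays from their group means correlated at 0.39 over all probe sets and 0.79 over members, but with only 2 pairs this is a hint from the data, not the design. With the replicate block, 0 members had an adjusted p under 0.05 by limma between genotypes, and 0 had an unadjusted p under 0.05. The median difference of -0.05 cannot change with the block in this balanced layout.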
